A study of Mus musculus with 6 samples.

Results

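The genes described here are the enzymes of the mevalonate, sterol and fatty acid synthesis pathways, the SREBP proteins that switch these pathways on, and the LXR receptors with some of their targets. The 39 genes were taken by name from a list drawn up with earlier results of these data known, and 38 of them were found among the 12153 genes measured by RNA-Seq in Tregs sorted from B16 tumors. *Abca1*, the main cholesterol exporter induced by LXR, was not analysed here. Expression was compared between 3 control libraries and 3 Nr3c1 Foxp3-Cre libraries. The mice of both groups carried a floxed *Nr3c1*, the gene for the glucocorticoid receptor (GR), and both bore tumors of the mouse melanoma line B16.F10 for 15 days. Only the Nr3c1 Foxp3-Cre mice are labelled as also carrying the Foxp3-YFP/Cre allele, in which the promoter of *Foxp3*, the gene for the defining transcription factor of Tregs, drives Cre. The labels describe a sort on CD45, CD4 and CD25 after the tumor cells were depleted on a Percoll gradient, whereas the study's methods describe a sort on Foxp3-YFP, so a difference in sorting between the groups and the genotype cannot be told apart. The labels do not give the age of the mice or say whether a library came from 1 animal or a pool, and p-values measure only the spread between these libraries.

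Cells build cholesterol from acetyl-CoA through mevalonate, farnesyl diphosphate and squalene, and they build fatty acids from the same acetyl-CoA. When sterols in the endoplasmic reticulum run low, Scap escorts the SREBP precursors to the Golgi, where they are cut to release transcription factors that turn on the enzymes of both routes. When sterols are plentiful, Insig proteins hold Scap back, and oxysterols activate LXR, which turns on cholesterol export and lowers uptake. Dividing T cells draw on both routes for membranes, and the mevalonate pathway is known to matter for Treg function.

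Promoter letters of 3 members are shown because they stand for 3 branches of the pathway. The branches are the entry to the mevalonate route, fatty acid synthesis and the retention of SREBP. Each stretch was also chosen because it held 3 matches to the CCAAT box. NF-Y, a partner of SREBP at many sterol promoters, binds these letters. In *Fasn*, the matches at −62 and −59 from the start share bases, since CCAATTGG reads CCAAT on both strands. Each line is the 250 bases before the RefSeq start of the gene on GRCm38.p6, the assembly that is also called mm10, 5′ to 3′ on the strand of the gene, and none of the 3 stretches overlaps an annotated exon. Capitals mark CCAAT on either strand, where the other strand reads ATTGG, and the sterol regulatory element (SRE).
Hmgcs1, chr13:119690101-119690350, plus strand: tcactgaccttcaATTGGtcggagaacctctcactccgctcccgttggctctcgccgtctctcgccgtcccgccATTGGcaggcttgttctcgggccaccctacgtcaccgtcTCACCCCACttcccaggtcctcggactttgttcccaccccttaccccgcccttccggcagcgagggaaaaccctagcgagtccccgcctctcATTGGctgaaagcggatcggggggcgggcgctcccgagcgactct
Fasn, chr11:120824548-120824797, minus strand: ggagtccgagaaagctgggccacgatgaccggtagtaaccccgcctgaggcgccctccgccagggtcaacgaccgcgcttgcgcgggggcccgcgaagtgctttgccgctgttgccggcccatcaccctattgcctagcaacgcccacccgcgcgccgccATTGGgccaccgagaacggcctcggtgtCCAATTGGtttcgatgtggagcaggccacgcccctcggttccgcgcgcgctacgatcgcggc
Insig2, chr1:121332590-121332839, minus strand: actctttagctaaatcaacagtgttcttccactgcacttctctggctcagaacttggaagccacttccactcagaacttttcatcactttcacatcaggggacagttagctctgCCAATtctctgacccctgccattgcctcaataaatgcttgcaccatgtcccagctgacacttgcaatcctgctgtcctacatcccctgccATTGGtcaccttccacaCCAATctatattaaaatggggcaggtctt

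The window searched ran from 250 bases before to 50 bases after each RefSeq start, and 31 of the 39 listed genes had at least 1 window. Among the 30 that also had a value, 23 held CCAAT on either strand, or 76.7%, against 43.2% of the 9334 measured genes with a window and 41.1% of all 27025 genes with one. The SRE, spelled TCACNCCAC, was found for 1 of the 30, *Hmgcs1*, where it began 137 bases before the start. That share of 3.33% stood beside 1.37% of the measured genes. The E-box CACGTG, letters that SREBP and many other factors can bind, was found for *Dhcr7*, *Hsd17b7*, *Insig1*, *Sc5d* and *Scap*, or 16.7%, against 11.8% of the measured genes. The core of the glucocorticoid response element, ACANNNTGT, was found for *Acat2* and *Acss2*, or 6.67%, against 5.05% of the measured genes. Both strands were searched, the 4 motifs could overlap, and a match describes letters and not a bound site.

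The targeted gene followed the labels. *Nr3c1* was at 7.15, 7.59 and 6.88 log2 CPM in control libraries 1 to 3 and at 6.14, 5.45 and 5.90 in Nr3c1 Foxp3-Cre libraries 1 to 3, with no overlap, a difference of −1.38 (SE 0.21) and an adjusted p of 0.120 by limma. Of 3 genes that GR is known to induce, *Tsc22d3* differed by −1.56 with a limma adjusted p of 0.0342, *Dusp1* by −0.56 without overlap and with an adjusted p of 0.652, and *Fkbp5* by −0.16 with overlapping groups. All 10 Treg and T cell markers had values, with *Foxp3* between 3.39 and 4.47 log2 CPM, and their summed level was 6095 to 7977 CPM in control and 6225 to 6813 CPM in Nr3c1 Foxp3-Cre libraries. All 10 melanoma markers had values as well. They summed to 4591 to 12292 CPM in control and 5098 to 12552 CPM in Nr3c1 Foxp3-Cre libraries, or 0.459% to 1.26% of each library. The melanoma sum was above that of the Treg and T cell markers in controls 1 and 3 and in Nr3c1 Foxp3-Cre 1 and 2. It was below that sum in control 2 and Nr3c1 Foxp3-Cre 3. The 12 macrophage and monocyte markers summed to 410 to 618 CPM in control and 295 to 597 CPM in Nr3c1 Foxp3-Cre libraries. The sums overlapped, but all 12 of these markers had differences below 0, with a median of −0.41 log2, and 0 had an unadjusted p under 0.05 by limma. Of the fibroblast and endothelium markers, 7 of 8 had values. They summed to 240 to 512 CPM in control and 149 to 231 CPM in Nr3c1 Foxp3-Cre libraries without overlap. Differences were below 0 for 6 of the 7, with the collagen genes *Col1a1* at −1.87 and *Col1a2* at −1.69, both without overlap. Among genes listed as endothelial, *Pecam1*, at a mean of 5.71 log2 CPM, was higher by 0.28 without overlap. *Kdr*, at a mean of 1.98, differed by −0.13 with overlapping groups. Which cells the *Pecam1* reads came from was not tested. Melanoma, macrophages and fibroblasts also express genes of sterol and fatty acid synthesis, and the part of their RNA in the values below was not tested. In such bulk libraries, fewer cells of a type and less RNA per cell cannot be told apart.

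**Figure D1:**
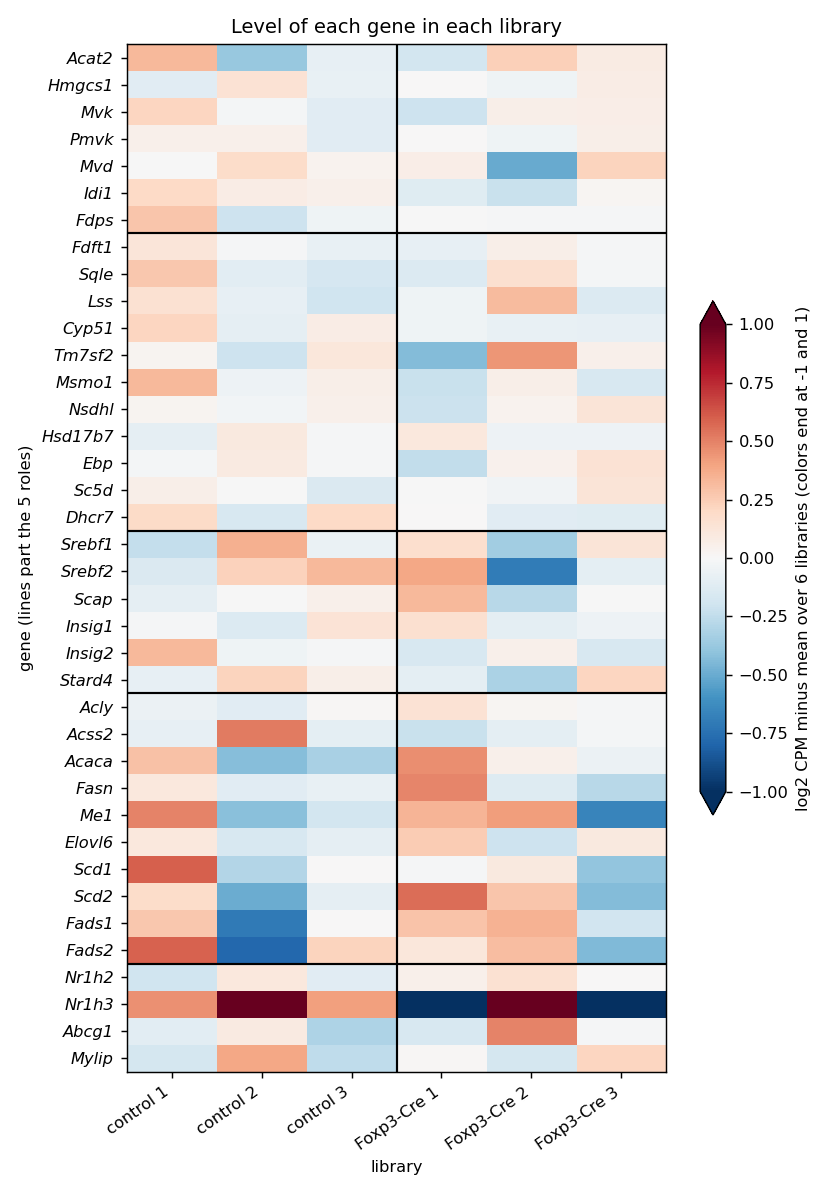
Level of each of the 38 genes in each of the 6 libraries, as log2 CPM minus the mean of the gene over the libraries (red higher, blue lower, colors end at −1 and 1), with lines between the 5 roles and between the groups. The sterol genes are pale throughout, and the fatty acid genes are mostly blue in control 2 and Foxp3-Cre 3. *Nr1h3* runs past the color scale, and its log2 CPM before the mean was subtracted ran from −2.53 to 1.78.

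None of the 38 genes passed the limma test between the genotypes, adjusted over all genes, and each had an adjusted p of 1.0. At that threshold 0.0576% of all genes passed. At an unadjusted p under 0.05, 0 of the 38 passed, where 3.26% of all genes did. The groups did not overlap for 1 member, *Idi1*, which was lower in the Nr3c1 Foxp3-Cre libraries, against 7.41% of all genes in either direction and 3.73% in that direction. The difference was above 0 for 20 members and below 0 for 18, where 49.5% of all genes were above 0. The median difference was 0.0016 log2 for the members and −0.0014 log2 for all genes. For 32 of the 38 genes the difference was smaller than the SD between replicates, as it was for 9326 of the 12153 genes.

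The intervals show how large a difference these libraries could have hidden. All 38 of the 95% intervals included 0. For 26 genes the whole interval lay within a 1.5-fold difference in either direction, and for 37 it lay within 2-fold, the exception being *Nr1h3*. All 7 mevalonate genes and 10 of the 11 sterol genes were bounded within 1.5-fold, as were 5 of 6 SREBP control genes. Only 3 of the 10 fatty acid genes and 1 of the 4 LXR genes were. The SD between replicates had a median of 0.16 log2 in the mevalonate genes, 0.15 in the sterol genes, 0.22 in the SREBP control genes, 0.35 in the fatty acid genes and 0.28 in the LXR genes, against 0.22 over all genes.

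**Figure D2:**
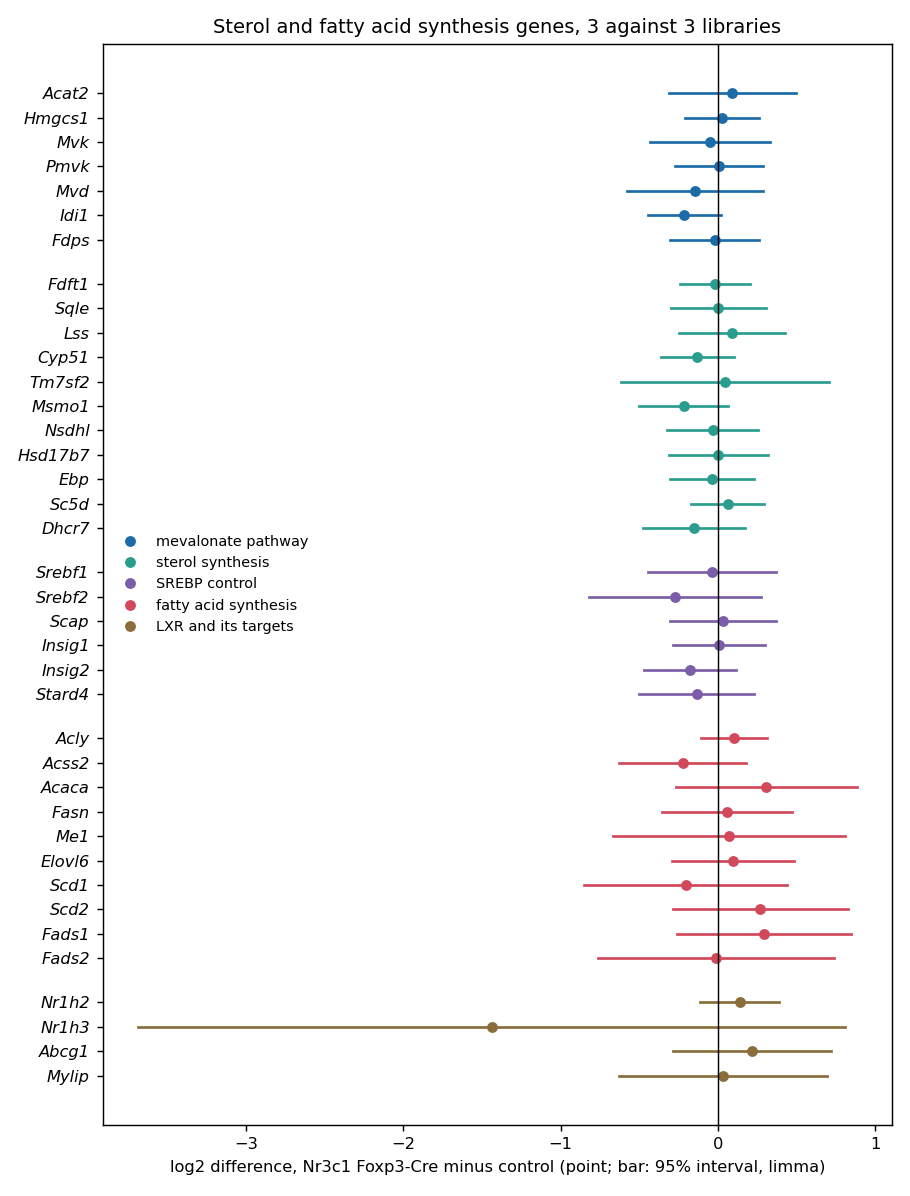
Log2 difference of each gene, Nr3c1 Foxp3-Cre minus control (points), with its 95% interval from limma over 3 against 3 libraries (bars), colored by role. Every bar crosses 0, the bars of the mevalonate and sterol genes are short, and the longest, for *Nr1h3*, runs from −3.68 to 0.81.

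The mevalonate genes carry acetyl-CoA to farnesyl diphosphate. *Idi1* makes dimethylallyl diphosphate, the unit that primes isoprenoid chains. It was at 7.31, 7.19 and 7.16 log2 CPM in control libraries 1 to 3 and at 6.99, 6.89 and 7.14 in Nr3c1 Foxp3-Cre libraries 1 to 3. The lowest control stood just above the highest Nr3c1 Foxp3-Cre library. The difference was −0.21 (SE 0.10, 95% interval −0.45 to 0.017, limma adjusted p = 1.0), and *Idi1* lies on chr13:8885501-8892451 of mm10, plus strand.

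*Fdps*, which joins the isoprenoid units into farnesyl diphosphate, was at 8.07, 7.59 and 7.75 log2 CPM in control and 7.78, 7.78 and 7.78 in Nr3c1 Foxp3-Cre libraries. Its 3 Nr3c1 Foxp3-Cre values fell inside the control range, with a difference of −0.021 (95% interval −0.30 to 0.26). *Acat2*, which condenses acetyl-CoA at the entry to the route, was at 7.57, 6.86 and 7.16 in control and 7.05, 7.48 and 7.32 in Nr3c1 Foxp3-Cre libraries. Control 1 was its highest and control 2 its lowest library, so the groups overlapped throughout, and the difference was 0.089 (95% interval −0.31 to 0.49). *Hmgcs1*, the HMG-CoA synthase whose promoter is shown above, had a mean of 7.03 log2 CPM in control and 7.06 in Nr3c1 Foxp3-Cre libraries, with a difference of 0.024 (95% interval −0.21 to 0.26).

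The remaining mevalonate genes act in sequence on mevalonate. *Mvk*, mevalonate kinase, differed by −0.051 around a mean of 4.44 log2 CPM. *Pmvk*, the next kinase, differed by 0.0073 around a mean of 5.21. *Mvd*, the decarboxylase that yields isopentenyl diphosphate, differed by −0.14 around a mean of 5.07, and its lowest value, 4.57, came from Nr3c1 Foxp3-Cre 2. Over the 7 genes the median difference was −0.021, with 3 above 0 and 4 below.

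The sterol genes run from squalene synthase to cholesterol. *Msmo1*, which removes the C4 methyl groups, had the largest difference of the 11. It was at 7.73, 7.35 and 7.47 log2 CPM in control and 7.18, 7.46 and 7.24 in Nr3c1 Foxp3-Cre libraries, a difference of −0.22 (SE 0.12, 95% interval −0.50 to 0.061). The groups overlapped because Nr3c1 Foxp3-Cre 2 was above control 2 and close to control 3, and the difference was −0.11 without control 1.

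*Sqle*, squalene epoxidase and a rate-limiting step, was at 8.0, 7.62 and 7.56 log2 CPM in control and 7.59, 7.89 and 7.71 in Nr3c1 Foxp3-Cre libraries. The difference was 0.0013 (95% interval −0.30 to 0.30), and each group had a library near the top of the range. *Cyp51*, lanosterol demethylase, was at 7.77, 7.46 and 7.62 in control and 7.51, 7.48 and 7.47 in Nr3c1 Foxp3-Cre libraries. Its Nr3c1 Foxp3-Cre values were close together and above the lowest control, with a difference of −0.13 (95% interval −0.36 to 0.098).

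Of the other sterol genes, *Fdft1*, squalene synthase, differed by −0.021, and 18.3% of its exon bases overlap *Ctsb* on the opposite strand. The library kit does not mark strand, so reads of the 2 genes there cannot be told apart. The same holds for 9.22% of the exon bases of *Idi1*, 12.1% of *Hmgcs1* and 13.2% of *Scap*, which lie opposite gene models not analysed here. *Lss*, lanosterol synthase, differed by 0.088, and *Tm7sf2*, a sterol reductase, by 0.043 around a low mean of 2.58 log2 CPM. *Tm7sf2* was the sterol gene whose interval, −0.62 to 0.70, reached past 1.5-fold, and 12.1% of its exon bases are shared with *Vps51*. *Nsdhl* and *Hsd17b7*, which act with *Msmo1* in removing the C4 methyl groups, differed by −0.034 and 0.0018. The late enzymes *Ebp*, *Sc5d* and *Dhcr7* differed by −0.039, 0.060 and −0.15. The median difference of the 11 genes was −0.021, with 5 above 0 and 6 below.

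Among the genes that control SREBP, *Srebf2* was the one not bounded within 1.5-fold. *Srebf2*, the SREBP that mainly drives sterol genes, was at 6.90, 7.27 and 7.37 log2 CPM in control and 7.43, 6.34 and 6.95 in Nr3c1 Foxp3-Cre libraries. The Nr3c1 Foxp3-Cre group held both the highest and the lowest value, and the difference was −0.27 (SE 0.24, 95% interval −0.82 to 0.27). Without Nr3c1 Foxp3-Cre 2, its lowest library, the difference was 0.0084. *Srebf1*, the SREBP that mainly drives fatty acid genes, was at 6.62, 7.21 and 6.79 in control and 7.02, 6.51 and 6.98 in Nr3c1 Foxp3-Cre libraries, a difference of −0.036 (95% interval −0.44 to 0.37). Its lowest value was again that of Nr3c1 Foxp3-Cre 2.

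*Scap*, the escort that senses sterols, differed by 0.031 around a mean of 6.53 log2 CPM, with Nr3c1 Foxp3-Cre 1 and 2 as its highest and lowest libraries. *Insig1* and *Insig2*, which hold Scap in the endoplasmic reticulum, differed by 0.0064 and −0.18. *Stard4*, a carrier of sterol between membranes, differed by −0.14 around a mean of 5.39. In Nr3c1 Foxp3-Cre 2, the mean deviation of the 6 genes from their own averages was −0.28 log2, where the other 5 libraries lay between −0.040 and 0.13. In the same library, the 11 sterol genes had a mean deviation of 0.076. That library also had the highest melanoma marker level, 12552 CPM.

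**Figure D3:**
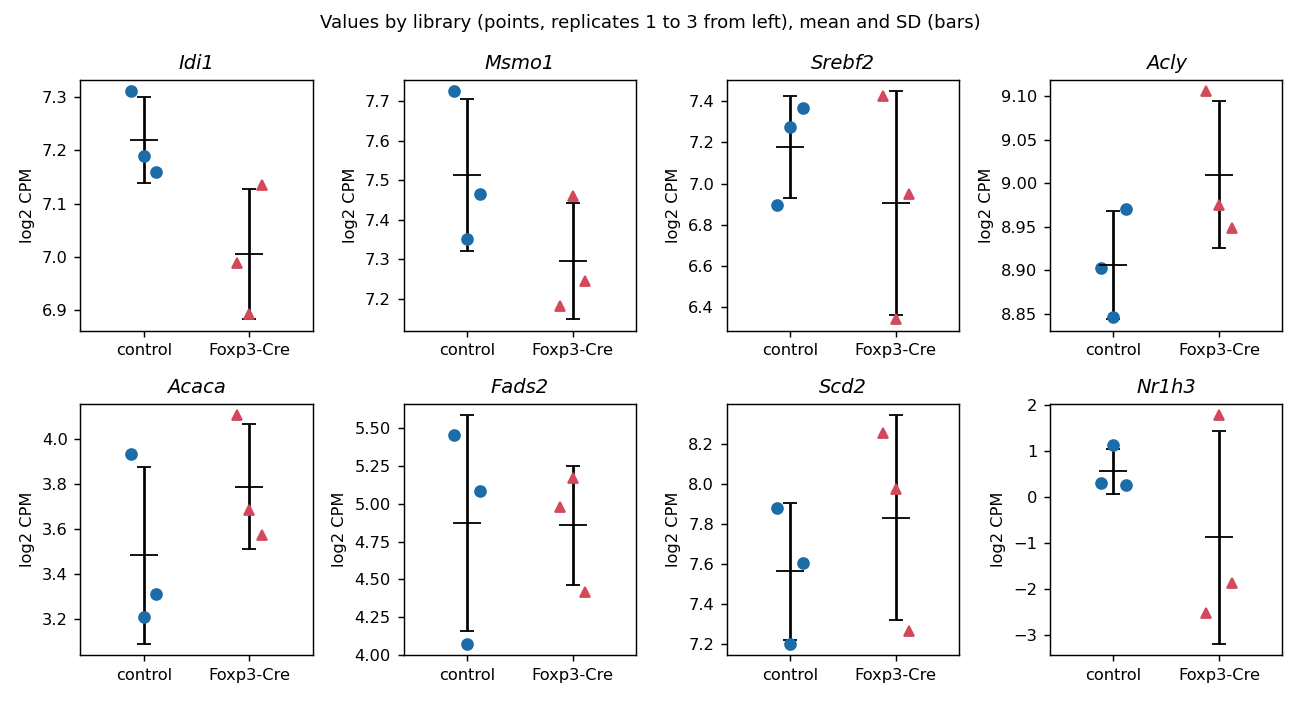
Log2 CPM of 8 members by library (points, replicates 1 to 3 from left in each group) with the group mean and SD (bars), each panel on its own axis. *Idi1* is the panel without overlap, Foxp3-Cre 2 lies far below the other libraries for *Srebf2*, and control 2 and Foxp3-Cre 3 are the low points of their groups for *Acly*, *Acaca*, *Fads2* and *Scd2*.

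Genes of fatty acid synthesis had wider intervals, with a median half-width of 0.56 log2 against 0.29 for the sterol genes. *Acly*, which makes cytosolic acetyl-CoA from citrate, had the highest level of the 38 genes per kilobase of exon, at 6.56 log2 CPM per kb. It was at 8.90, 8.85 and 8.97 log2 CPM in control and 9.11, 8.97 and 8.95 in Nr3c1 Foxp3-Cre libraries, a difference of 0.10 (SE 0.093, 95% interval −0.11 to 0.31). Its values were close together, and the highest control stood between the Nr3c1 Foxp3-Cre values.

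*Acaca*, acetyl-CoA carboxylase, which commits acetyl-CoA to fatty acids, had the largest difference of the 10. It was at 3.93, 3.21 and 3.31 log2 CPM in control and 4.10, 3.69 and 3.58 in Nr3c1 Foxp3-Cre libraries, a difference of 0.30 (SE 0.26, 95% interval −0.27 to 0.88). Control 1 lay above 2 of the 3 Nr3c1 Foxp3-Cre libraries, and the difference was 0.53 without control 1 and 0.15 without Nr3c1 Foxp3-Cre 1. *Scd2*, a desaturase that puts the first double bond into fatty acids, was at 7.88, 7.20 and 7.61 in control and 8.25, 7.98 and 7.26 in Nr3c1 Foxp3-Cre libraries. The difference was 0.27 (SE 0.25, 95% interval −0.29 to 0.83), and it was 0.55 without Nr3c1 Foxp3-Cre 3 and 0.056 without Nr3c1 Foxp3-Cre 1.

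*Fasn*, the synthase that builds palmitate, differed by 0.057 around a mean of 6.94 log2 CPM. *Me1*, malic enzyme, which supplies NADPH, differed by 0.070, and *Elovl6*, which elongates palmitate, by 0.096. *Scd1*, the close relative of *Scd2* with which it may share reads, differed by −0.21 around a mean of 3.08. *Fads1* and *Fads2*, the desaturases of polyunsaturated fatty acids, differed by 0.29 and −0.014, and *Fads1* by 0.010 without control 2. *Acss2*, which makes acetyl-CoA from acetate, differed by −0.23, and by −0.022 without control 2. Of the 10 genes, 7 were above 0 and 3 below, with a median of 0.083.

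Most fatty acid genes shared an order of the libraries, a pattern noticed after the values were seen. Control 2 was the lowest control library and Nr3c1 Foxp3-Cre 3 the lowest of its group for 8 of the 10 genes, *Acly*, *Acaca*, *Fasn*, *Me1*, *Scd1*, *Scd2*, *Fads1* and *Fads2*, with *Acss2* and *Elovl6* as the exceptions. Of all genes, 13.6% had both libraries lowest in this way. Among the other members it was seen for *Cyp51* and *Dhcr7* of the 11 sterol genes, and for 0 of the 7 mevalonate, 0 of the 6 SREBP control and 0 of the 4 LXR genes. *Fads2*, chosen here after its values were seen, had the widest range of the 10, at 5.45, 4.08 and 5.08 log2 CPM in control and 4.98, 5.17 and 4.42 in Nr3c1 Foxp3-Cre libraries. Control 2 was its lowest library and Nr3c1 Foxp3-Cre 3 the next lowest.

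The count above took control 2 and Nr3c1 Foxp3-Cre 3 because they had the lowest melanoma marker levels of their groups, so that match is not a separate finding. The 10 markers summed to 12292, 4591 and 9077 CPM in control libraries 1 to 3 and to 8520, 12552 and 5098 CPM in Nr3c1 Foxp3-Cre libraries 1 to 3. The mean deviation of the 10 fatty acid genes was 0.25, −0.30 and −0.062 log2 in the control libraries and 0.24, 0.11 and −0.24 in the Nr3c1 Foxp3-Cre libraries. The order is not exact, since Nr3c1 Foxp3-Cre 2 had the highest marker level and only the third highest fatty acid mean. With the mean of the melanoma markers as a covariate, an alternative chosen after seeing the data, *Fads1* differed by 0.34, *Scd2* by 0.32 and *Acaca* by 0.33, with limma adjusted p-values of 0.791, 0.936 and 0.994. *Fads2* moved from −0.014 to 0.058. Which cells the fatty acid transcripts came from was not tested.

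**Figure D4:**
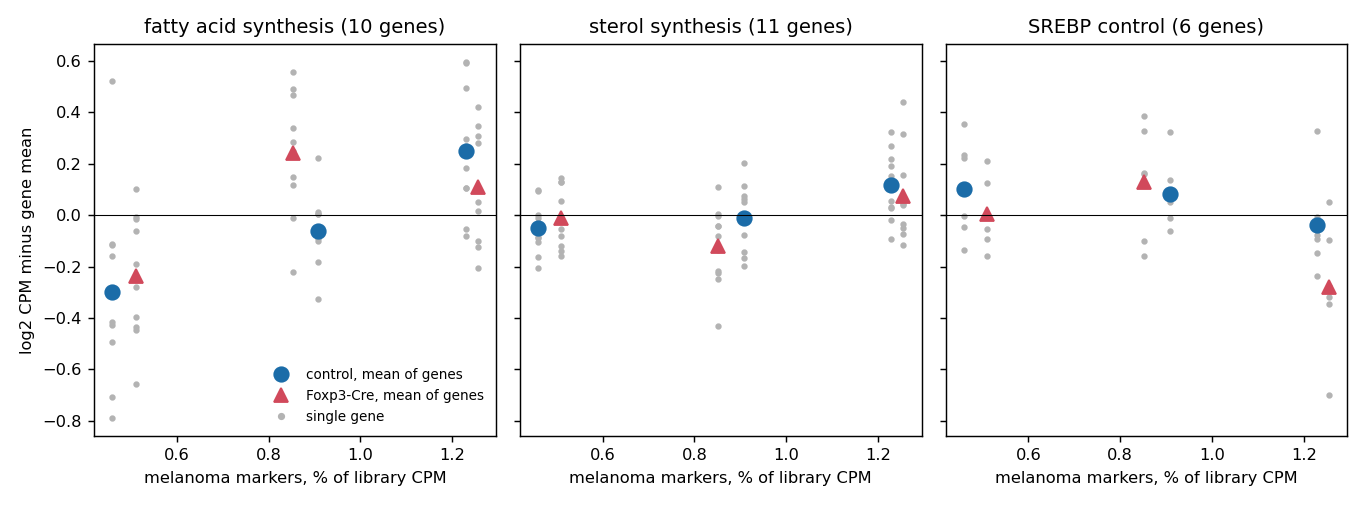
Log2 CPM minus the mean of the gene (grey, single genes; circles and triangles, mean of the genes in each control and Foxp3-Cre library) against the share of library CPM taken by 10 melanoma markers, for the fatty acid, sterol and SREBP control genes. The fatty acid means are lowest, at −0.30 and −0.24, in the 2 libraries with marker shares of 0.459% and 0.510%, and the sterol means stay between −0.12 and 0.12.

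*Nr1h2* and *Nr1h3* encode the LXR receptors, LXRβ and LXRα. *Nr1h2*, found in most tissues, was at 6.42, 6.72 and 6.50 log2 CPM in control and 6.67, 6.77 and 6.62 in Nr3c1 Foxp3-Cre libraries. Control 2 was above 2 of the 3 Nr3c1 Foxp3-Cre values, and the difference was 0.14 (SE 0.11, 95% interval −0.12 to 0.39). *Nr1h3*, which is prominent in macrophages, had the lowest level of the 38 genes per kilobase of exon. It was at 0.31, 1.13 and 0.26 in control and −2.53, 1.78 and −1.87 in Nr3c1 Foxp3-Cre libraries, so that the Nr3c1 Foxp3-Cre group held both the lowest and the highest values. Its difference was −1.44 (SE 1.0, 95% interval −3.68 to 0.81), and −2.76 without Nr3c1 Foxp3-Cre 2 and −0.61 without Nr3c1 Foxp3-Cre 1. These differences rest on very low values, since its mean over the libraries, −0.15 log2 CPM, was at percentile 0.38 of all genes. Macrophage markers summed to 295 and 339 CPM in Nr3c1 Foxp3-Cre 1 and 3, where *Nr1h3* was lowest. They summed to 597 CPM in Nr3c1 Foxp3-Cre 2, where *Nr1h3* was highest. The control libraries 1 to 3 went the other way, with sums of 618, 410 and 485 CPM. There *Nr1h3* was highest in control 2, where the sum was lowest. The part of macrophage RNA in the *Nr1h3* values was not tested.

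*Abcg1*, a cholesterol exporter, was at 3.86, 4.06 and 3.66 log2 CPM in control and 3.80, 4.47 and 3.95 in Nr3c1 Foxp3-Cre libraries. The groups overlapped, with Nr3c1 Foxp3-Cre 2 highest, and the difference was 0.22 (95% interval −0.29 to 0.72), or 0.019 without Nr3c1 Foxp3-Cre 2. *Mylip*, the ligase that marks the LDL receptor for breakdown, differed by 0.029 around a mean of 2.30.

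Per kilobase of exon, the members after *Acly* were led by *Acat2* at 5.89, *Ebp* at 5.80, *Fdps* at 5.72, *Cyp51* at 5.41 and *Idi1* at 5.30 log2 CPM per kb, all of cholesterol synthesis. The gaps between *Acat2*, *Ebp* and *Fdps* were smaller than the SD between replicates of *Acat2*, 0.29 log2, so their order is not firm. Close below *Idi1* came *Sqle* at 5.26 and the fatty acid gene *Scd2* at 5.25. The SD between replicates of *Scd2* was 0.43 log2, so its place below *Idi1* is not firm either. Of the exon bases of *Fdps*, 26.7% are shared with an overlapping gene model. *Nr1h3*, at −1.48, and *Acaca*, at −0.46, were the lowest. These values use the length of all annotated exons and not that of the transcripts in these cells.

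A wider list of 59 genes of sterol handling, SREBP processing, glycerolipid synthesis and LXR partners was counted in the same fit, and 55 had values. None passed the adjusted threshold. At an unadjusted p under 0.05 there was 1, *Nrip1*, higher in Nr3c1 Foxp3-Cre libraries, beside the 3.26% of all genes. The groups did not overlap for 4 of the 55, beside 7.41% of all genes, with *Npc2* and *Rnf139* lower and *Lrp8* and *Acsl1* higher. The difference was above 0 for 31 and below 0 for 24, with a median of 0.027.

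*Npc2*, which moves cholesterol out of lysosomes, differed by −0.11 with an SD between replicates of only 0.017. *Rnf139*, a ligase of the endoplasmic reticulum tied to sterol sensing, differed by −0.17. *Lrp8*, a receptor of the LDL receptor family, differed by 0.42 and *Acsl1*, which activates fatty acids, by 0.35. *Nrip1*, a corepressor of nuclear receptors, differed by 0.47 with overlapping groups. All 5 had a limma adjusted p of 1.0.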

How the data were processed

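RNA from sorted Tregs was measured in 6 libraries, grouped by the genotype in the sample titles. Before deposit, the authors used Cutadapt for trimming, STAR for alignment (mm10) and RSEM with GENCODE M21 for quantification, dropped genes of low CPM and applied quantile normalization. What the authors deposited is the resulting log2 CPM, so counts and read depth cannot be recovered, the precision rests on 3 libraries per group, and quantile normalization may hide a shift shared by most genes.

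The whole table of 12153 genes was fitted by limma 3.58.1 (R 4.3.3) on genotype alone, with lmFit and a trended eBayes, and p-values were adjusted by the Benjamini-Hochberg method at 0.05. Differences are Nr3c1 Foxp3-Cre minus control. The script was tested on simulated data. Exon lengths and overlaps came from GENCODE M21, promoter windows from RefSeq on GRCm38.p6, and motifs were matched by their letters on both strands. The 8 listed genes without a window were *Fdps*, *Abcg1*, *Stard4*, *Scd1*, *Sqle*, *Fads1*, *Fdft1* and *Scd2*.

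Members and lists were chosen with earlier results of these data known. Every member was named, and library values were given for members without overlap, with an unadjusted p under 0.05, with the largest difference in their role, or among the 2 highest means of their role. Other pathway genes were named where the groups did not overlap or the unadjusted p was under 0.05, and 1 gene of these lists is not reported here. The alternatives changed the eBayes step (no trend, or robust), the weights (vooma, or by sample quality), the low values (a minimum mean log2 of 1, or a pseudocount of 1), the scaling (cyclic loess, or centering libraries on their median over genes whose mean was at least 5) or the samples (a replicate block, or 1 library left out). Markers of CD8 and NK cells had values for 2 of 6 genes, of dendritic cells for 4 of 6, of B cells for 1 of 5 and of neutrophils for 0 of 5, with sums of 10.9 to 18.8, 34.7 to 56.0 and 14.1 to 23.4 CPM for the first 3 lists.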

Additional observations from a re-analysis of the deposited data

How the results depend on the processing

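Under all 16 alternative settings, 0 members had an adjusted p under 0.05 by limma. Over all genes, the 7 calls became 0 without a mean-variance trend (469 genes had an unadjusted p under 0.05), 19 with sample quality weights, 18 with a melanoma marker covariate, which was chosen after seeing the data, and 0 to 8 when 1 library was left out, with 0 calls without control 3 or without Nr3c1 Foxp3-Cre 2. The sample weights gave control 3 a weight of 7.47 and the others 0.520 to 0.860. With the replicate block, 0 genes passed and 275 had an unadjusted p under 0.05, of which 0 were members. The deviations of same-numbered libraries correlated at −0.117, −0.329 and −0.0246 across genes, and those of differently numbered libraries at −0.269 to 0.365. These correlations cannot say whether same-numbered libraries were handled as pairs. With the melanoma covariate, *Nr3c1* differed by −1.41 with an adjusted p of 0.00414.

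Members with an unadjusted p under 0.05 numbered 1 with sample weights (*Acaca*), 1 with the melanoma covariate (*Fads1*) and 0 to 2 with 1 library left out: *Msmo1* at −0.30 without control 2, *Srebf2* at −0.53 without Nr3c1 Foxp3-Cre 1, *Nr1h3* at −2.76 without Nr3c1 Foxp3-Cre 2, and *Idi1* at −0.28 and *Scd2* at 0.55 without Nr3c1 Foxp3-Cre 3. Of all genes, 11.3% had such a p with sample weights, 5.33% with the melanoma covariate and 2.39% to 5.78% with 1 library left out. Members without overlap numbered 2 to 6 with 1 library left out, where fewer values have to be parted and 13.2% to 20.0% of all genes did not overlap. *Nr1h3* was not tested under the minimum mean of 1.

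The sign held under every setting for 15 members and turned under some setting for 23. With sample weights the turned differences were *Mvk* 0.056, *Fdps* 0.024, *Fdft1* 0.043, *Tm7sf2* −0.10, *Srebf1* 0.059, *Scap* −0.00060 and *Insig1* −0.10, with cyclic loess *Sqle* −0.00077, and with the melanoma covariate *Hsd17b7* −0.0034, *Fads2* 0.058 and *Mylip* −0.0058. With 1 library left out, the differences ran from −0.080 to 0.28 for *Acat2*, −0.025 to 0.10 for *Hmgcs1*, −0.12 to 0.042 for *Mvk*, −0.047 to 0.036 for *Pmvk*, −0.29 to 0.071 for *Mvd* and −0.13 to 0.11 for *Fdps*. Among sterol genes they ran from −0.064 to 0.033 for *Fdft1*, −0.081 to 0.14 for *Sqle*, −0.047 to 0.19 for *Lss*, −0.17 to 0.27 for *Tm7sf2*, −0.11 to 0.067 for *Nsdhl*, −0.051 to 0.052 for *Hsd17b7* and −0.12 to 0.074 for *Ebp*. Among SREBP control genes they ran from −0.16 to 0.13 for *Srebf1*, −0.53 to 0.0084 for *Srebf2*, −0.13 to 0.18 for *Scap* and −0.072 to 0.076 for *Insig1*. For the others they ran from −0.17 to 0.21 for *Fasn*, −0.12 to 0.42 for *Me1*, −0.0056 to 0.22 for *Elovl6*, −0.40 to 0.040 for *Scd1*, −0.41 to 0.28 for *Fads2* and −0.092 to 0.23 for *Mylip*. The members that kept their sign ran from −0.28 to −0.16 for *Idi1*, −0.30 to −0.11 for *Msmo1*, −0.21 to −0.058 for *Cyp51*, 0.0027 to 0.10 for *Sc5d*, −0.27 to −0.090 for *Dhcr7*, −0.25 to −0.061 for *Insig2*, −0.28 to −0.012 for *Stard4*, 0.055 to 0.14 for *Acly*, −0.33 to −0.022 for *Acss2*, 0.15 to 0.53 for *Acaca*, 0.056 to 0.55 for *Scd2*, 0.010 to 0.50 for *Fads1*, 0.073 to 0.22 for *Nr1h2*, −2.76 to −0.61 for *Nr1h3* and 0.019 to 0.35 for *Abcg1*. All of these ranges, also those of members that kept their sign, are over fits with 1 library left out. Among members that kept their sign, the difference over all settings reached as high as 0.16 for *Sc5d* and −0.41 for *Nr1h3*. It reached as low as 0.054 for *Acly*. The cause of the changes between settings was not tested.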
